A study of Mus musculus with 4 samples.

Results

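Integrins are the receptors with which leukocytes hold on to vessels, matrix and one another, and 9 genes of this adhesion machinery were followed here in macrophages of the mouse colon. The genes were Itgal, Itgam, Itgax and Itgb2 of the leukocyte (β2) integrins, the β subunit genes Itgb7, Itgb1 and Itgb5, and Vcam1 and Icam1, which encode ligands of integrins. They were taken by name, through their Ensembl identifiers, and all 9 have a row among the 12596 rows of the table. The rule used no measured value of these genes, though the list was chosen with earlier results of these data known.

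The cells came from the colonic lamina propria of 4 male C57/Bl6N mice, 2 gavaged with diesel exhaust particles (DEP, mice 14 and 15) and 2 with PBS (mice 2 and 3). Each dose was 12 µg of DEP in a volume of 200 µL, with plain PBS for the controls, on 5 days a week over some 6 months. Cells were sorted as CD11b+ and as Ly6C+ or CD64+, loaded in a single batch with 1 well per mouse, and counted by unique molecular identifiers (UMIs), each marking 1 captured RNA molecule. A well and a mouse therefore cannot be told apart, and CD11b, which Itgam encodes, was itself part of the sort.

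An integrin is a pair of an α and a β chain that changes shape when talin and kindlin bind its tail from inside the cell, after which it grips its ligand. β2 pairs with αL (Itgal) to LFA-1 and with αM (Itgam) to Mac-1, both of which bind ICAM-1, and with αX (Itgax) to CR4, a complement receptor. β7 pairs with α4 to the receptor for the gut addressin MAdCAM-1, β1 with α4 to VLA-4, which binds VCAM-1, and β5 with αv to a receptor for vitronectin. Monocytes use these receptors to leave the blood, and many enter the healthy colon to become resident macrophages.

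The 9 genes were described in 2 classes of cells set by genes outside the list. Plac8-high cells held 2 or more UMIs of Plac8, a gene of blood monocytes, and C1q-high cells held C1qa, C1qb and C1qc, complement genes of resident macrophages, at 0.5% or more of their UMIs. Before the comparisons 293 cells were removed because at least 3 markers of another cell type were detected in them, and 278 of these met the B or plasma cell list, mostly through immunoglobulin transcripts. With immunoglobulin genes left out, 260 of the 293 held fewer than 3 such markers. C1qa was found in 96.2% of these 260 cells (5749 CPM, UMIs scaled to library size), so removal does not mark a cell as another type. The removed cells were also deeper, with a median of 5311 UMIs beside 3253.5 in retained cells. The removal was uneven, with 40.7% of the cells of each DEP mouse and 15% and 22.7% of the cells of PBS mice 2 and 3, so values over all cells of the table are given beside the exposure results. The 650 retained cells comprised 123 that were Plac8-high only, 472 that were C1q-high only, 38 that met both rules and 17 that met neither. Per mouse these classes held between 16 and 54 Plac8-high only cells (49967 to 150010 UMIs) and between 68 and 138 C1q-high only cells (289685 to 667825 UMIs). Summed markers of monocytes lay between 7625 and 8953 UMIs scaled to library size (CPM) in the former and between 236 and 338 CPM in the latter, and macrophage markers between 1661 and 2144 against 20294 and 22590 CPM. Plac8 and the C1q genes stand in these lists and were used by the rule, so this only describes the classes. Every pair of mice differed beyond counting noise (chi-square divided by its degrees of freedom 2.95 to 5.21).

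On the genome (GRCm38) 3 of the α chain genes lie in a row on chromosome 7. Itgal spans 127296260 to 127335138, Itgam 128062640 to 128118491 and Itgax 128129547 to 128150657, all on the plus strand. Itgam and Itgax are separated by 11.1 kb, and Itgal and Itgam by 728 kb. Itgb2 lies at chr10:77530252-77565708, Itgb7 at chr15:102215995-102231944 on the minus strand, Itgb1 at chr8:128685654-128733200, Itgb5 at chr16:33829665-33949338, Vcam1 at chr3:116109949-116129688 on the minus strand and Icam1 at chr9:21015985-21028817. Promoter sequences from RefSeq (GRCm38.p6) matched 6 of the 9 genes, namely Itgb7, Itgb5, Itgax, Itgam, Itgb1 and Icam1. The 250 bases before the start are printed for 4 of them. Of the 9 members Itgb7 was the most raised in Plac8-high cells, and Itgb5 and Itgax were far lower there. Itgam, next to Itgax, was taken because it differed little. Capitals mark GAGGAA or its reverse complement TTCCTC, the core bound by PU.1 and other ETS factors, and TGANTCA, the AP-1 motif, both searched on both strands.
Itgb7 (chr15:102231936-102232185, minus strand): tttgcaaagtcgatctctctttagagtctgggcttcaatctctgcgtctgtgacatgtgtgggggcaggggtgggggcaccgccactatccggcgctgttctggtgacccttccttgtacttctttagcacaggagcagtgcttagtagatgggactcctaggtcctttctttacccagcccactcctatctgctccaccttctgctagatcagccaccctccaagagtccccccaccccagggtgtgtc
Itgam (chr7:128062390-128062639, plus strand): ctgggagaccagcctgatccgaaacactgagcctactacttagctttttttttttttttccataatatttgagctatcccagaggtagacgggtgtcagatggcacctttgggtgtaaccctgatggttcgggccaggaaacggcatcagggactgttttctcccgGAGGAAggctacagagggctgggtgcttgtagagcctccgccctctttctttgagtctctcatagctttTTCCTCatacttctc
Itgax (chr7:128129300-128129549, plus strand): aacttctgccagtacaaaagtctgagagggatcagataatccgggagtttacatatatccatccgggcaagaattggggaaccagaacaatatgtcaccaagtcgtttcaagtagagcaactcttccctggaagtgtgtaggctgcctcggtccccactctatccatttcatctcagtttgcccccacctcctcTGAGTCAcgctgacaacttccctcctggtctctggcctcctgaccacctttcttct
Itgb5 (chr16:33829415-33829664, plus strand): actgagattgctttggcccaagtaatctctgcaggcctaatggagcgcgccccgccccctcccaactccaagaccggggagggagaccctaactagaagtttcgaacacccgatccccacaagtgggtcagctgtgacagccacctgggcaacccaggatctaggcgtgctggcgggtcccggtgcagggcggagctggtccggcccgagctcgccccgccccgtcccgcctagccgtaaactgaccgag
The ETS core occurred at 2 places in the Itgam window, 84 to 79 bases before the start on the plus strand and 15 to 10 bases before it on the minus strand. It also occurred once in the Itgb1 window, which is not printed, 9 to 4 bases before the start on the plus strand. The AP-1 motif occurred once in the Itgax window, 56 to 50 bases before the start. Neither motif was present in these windows of Itgb7 and Itgb5. Of 32851 such windows, 23.3% held GAGGAA and 6.75% held TGANTCA. The κB motif GGAANTTCC, which 0.813% of the windows held, was not found in any of the 4 sequences and occurred once in the Icam1 window, 153 to 145 bases before its start. These matches describe letters and not bound sites.

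The classes differed sharply in which integrin genes they held. Pooled over mice, Plac8-high cells carried 11.5-fold more Itgb7 than C1q-high cells (exact 95% interval 7.09 to 19.2, counting error only) and more Itgal, while C1q-high cells carried nearly all Itgax, Itgb5 and Vcam1. UMIs were summed per mouse and class and compared with edgeR's quasi-likelihood test (Benjamini-Hochberg adjustment over 5163 genes, mouse as block), with cells meeting both rules left out. At an adjusted p under 0.05, 3 members were higher in Plac8-high cells (Itgb7, Itgal and Itgb2), 3 were lower (Itgax, Itgb5 and Vcam1) and 3 did not pass the test (Itgam, Itgb1 and Icam1). Of all genes tested 18.3% were called, 7.15% higher and 11.2% lower. The members' median log2 fold change was −0.44, beside −0.14 over all genes tested. Below, CPM values of this comparison carry TMM factors, and values are given in the order of mice 14, 15, 2 and 3.

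**Figure D1:**
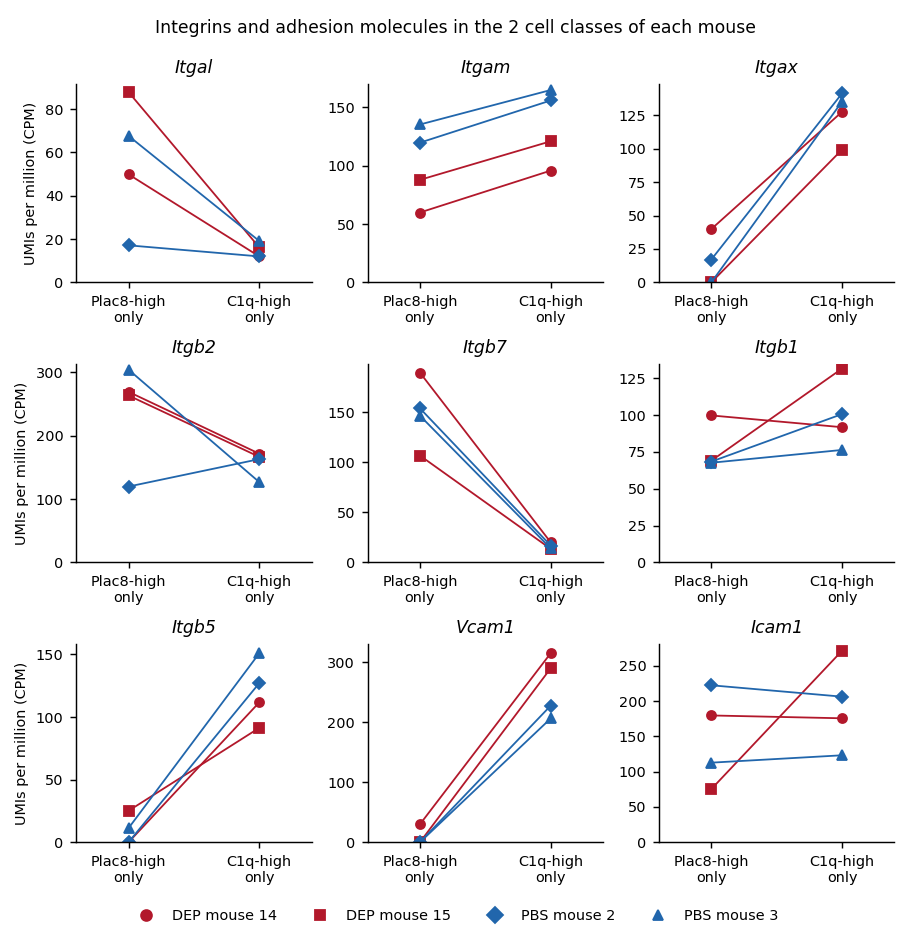
CPM with TMM factors of each member in the Plac8-high only and C1q-high only cells of 4 mice (red, DEP mice 14 and 15; blue, PBS mice 2 and 3; lines join the classes of a mouse). Itgb7 falls and Vcam1, Itgax and Itgb5 rise from left to right in every mouse, while Icam1 and Itgb1 have no common direction.

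Itgb7, the β chain of the gut-homing integrin, stood at 190, 107, 154 and 147 CPM in Plac8-high cells and at 20.0, 13.4, 16.8 and 13.9 CPM in C1q-high cells. The lowest Plac8-high library was thus above every C1q-high library. The log2 fold change was 3.18 ± 0.36 (SE, n = 4 mice; edgeR adjusted p = 4.96e-09), and Itgb7 passed the test under all 18 settings in which it was tested. The Plac8-high level rests on 58 UMIs in 38 of 123 cells, with at most 4 UMIs in 1 cell. A UMI of Itgb7 was found in 30.9% of these cells and in 4.24% of C1q-high cells. After thinning each cell to 1000 UMIs the shares were 11.4% and 1.06%. Cells of the B lineage carry Itgb7 themselves and gave no background for it.

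The α chain partners of β7 differ in their ligands, α4 giving the MAdCAM-1 receptor and αE (Itgae, which has no row) the receptor for E-cadherin. Itga4 stood at 137, 73.3, 120 and 35.5 CPM (without TMM factors) in Plac8-high cells and at 51.8, 34.9, 40.4 and 56.9 CPM in C1q-high cells. PBS mouse 3 went against the other 3 mice, and the log2 fold change of 0.59 ± 0.35 (SE) did not pass the test (edgeR adjusted p = 0.284). The transcripts of the β7 chain and of its α4 partner therefore differed in how clearly they separated the classes, a difference that was not tested itself.

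Itgal, the α chain of LFA-1, stood at 49.9, 87.9, 17.1 and 67.6 CPM in Plac8-high cells and at 12.0, 16.1, 12.0 and 19.1 CPM in C1q-high cells. It was higher in the Plac8-high library of all 4 mice, least so in PBS mouse 2, where that library held 1 UMI. Its log2 fold change was 1.92 ± 0.49 (SE, edgeR adjusted p = 0.00349). Without DEP mouse 15, which held 14 of the 26 Plac8-high UMIs, it was 1.64 (adjusted p = 0.106).

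Itgb2 encodes the β chain shared by LFA-1, Mac-1 and CR4, and it was found in both classes. Its levels were 269, 264, 120 and 304 CPM in Plac8-high cells and 172, 167, 163 and 127 CPM in C1q-high cells. With TMM factors the Plac8-high library was higher in 3 mice and lower in PBS mouse 2. Without them Itgb2 stood at 140 against 137 CPM in that mouse. Its log2 fold change was 0.65 ± 0.23 (SE, edgeR adjusted p = 0.0384), and it passed the test in 8 of 19 settings only. Over all cells it was 0.57 (adjusted p = 0.0597), and after thinning to 1000 UMIs it was 0.09 (adjusted p = 0.929).

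The other α partners of β2 went other ways. Itgax, the α chain of CR4 known as CD11c, stood at 39.9, 0, 17.1 and 0 CPM in Plac8-high cells and at 128, 99.4, 141 and 135 CPM in C1q-high cells. The Plac8-high cells held 5 UMIs of Itgax in 4 cells and the C1q-high cells 206 UMIs in 147 cells. Pooled over mice, the level was 8.31-fold higher in C1q-high cells (exact 95% interval 3.50 to 25.9, counting error only), and the fitted log2 fold change of Plac8-high over C1q-high cells was −3.25 ± 0.49 (SE, edgeR adjusted p = 2.01e-06). It passed the test in all 19 settings.

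Itgam, the α chain of Mac-1 or CD11b and a marker of the sort, was at similar levels in both classes. It stood at 59.9, 87.9, 120 and 135 CPM in Plac8-high cells and at 95.8, 121, 156 and 165 CPM in C1q-high cells. With TMM factors the Plac8-high library was lower in all 4 mice, and without them PBS mouse 2 went the other way, with 140 against 131 CPM. Over all genes tested 23.6% were lower in the Plac8-high library of every mouse and 12.7% were higher. The log2 fold change of Itgam was −0.43 (95% interval −0.96 to 0.11) and did not pass the test (edgeR adjusted p = 0.307). With no cell removed it was −0.70 (adjusted p = 0.0441), the only setting of 19 in which it passed, and the calls then took 18.3% of all genes as well. The neighbours Itgam and Itgax therefore had class differences of −0.43 and −3.25 on the log2 scale, whose own difference was not tested.

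Itgb5, the β chain that with αv binds vitronectin, was a C1q-high gene. Its levels were 0, 25.1, 0 and 11.3 CPM in Plac8-high cells and 112, 91.4, 127 and 151 CPM in C1q-high cells, so that the classes did not overlap. These levels rest on 5 and 202 UMIs, a pooled ratio of 8.14 (exact 95% interval 3.43 to 25.4). The fitted log2 fold change was −3.19 ± 0.48 (SE, edgeR adjusted p = 1.94e-06), and it passed the test in all 19 settings. Its partner Itgav moved with it, at 10.5, 13.3, 20.0 and 11.8 CPM (without TMM factors) in Plac8-high cells and 34.5, 46.6, 76.7 and 62.9 CPM in C1q-high cells, a log2 fold change of −2.25 ± 0.53 (SE, edgeR adjusted p = 0.00165).

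Itgb1, the β chain of VLA-4 and of most receptors for collagen, laminin and fibronectin, did not separate the classes. It stood at 99.8, 69.0, 68.4 and 67.6 CPM in Plac8-high cells and at 91.8, 132, 101 and 76.3 CPM in C1q-high cells. With TMM factors DEP mouse 14 was the only mouse in which the Plac8-high library was higher. Without them Itgb1 was higher there in PBS mouse 3 as well, with 71.1 against 65.9 CPM. Its log2 fold change was −0.44 (95% interval −1.04 to 0.17, edgeR adjusted p = 0.364).

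Of the ligands, Vcam1 had the largest class difference of the 9 genes. VCAM-1 is best known on activated endothelium, where VLA-4 of leukocytes binds it, and some tissue macrophages carry it as well. Its transcript stood at 29.9, 0, 0 and 0 CPM in Plac8-high cells and at 315, 290, 228 and 206 CPM in C1q-high cells. The 3 UMIs in Plac8-high cells came from 2 cells of DEP mouse 14, while 161 of 472 C1q-high cells held 401 UMIs, with up to 15 in 1 cell. Pooled over mice, the C1q-high level was 26.9-fold higher (exact 95% interval 9.15 to 131), and edgeR gave a log2 fold change of −5.10 ± 0.47 (SE, adjusted p = 2.48e-11). A UMI of Vcam1 was found in 34.1% of C1q-high and 1.63% of Plac8-high cells, and in 15% and 1.63% after thinning. In 16 removed cells with markers of the B lineage other than immunoglobulins, the share was 12.5% (exact 95% interval 1.55% to 38.3%). These cells were deeper (median 8375.5 UMIs), and their level of 29.0 CPM rests on 4 UMIs in 2 cells. C1qa was found in 62.5% of them (1137 CPM), so they give no clean background for Vcam1. Pooled and without TMM factors, the level was 7.91 CPM (exact 95% interval 1.63 to 23.1) in Plac8-high cells. In C1q-high cells it was 213 CPM (193 to 235). The list of stromal and endothelial markers, which holds Pecam1, summed to 24.2 to 51.8 CPM per mouse in C1q-high cells, with 5 of its 6 measured genes detected and Col1a2 at 0, and to 0 to 6.67 CPM in Plac8-high cells. Its part in the Vcam1 level was not tested.

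Icam1, the ligand of LFA-1 and Mac-1, was found in both classes. It stood at 180, 75.3, 222 and 113 CPM in Plac8-high cells and at 176, 271, 206 and 123 CPM in C1q-high cells. Only DEP mouse 15 had a clear gap between its classes, in the direction of C1q-high cells. The log2 fold change was −0.53 (95% interval −1.08 to 0.02, edgeR adjusted p = 0.195), and without that mouse it was 0.021. Of the 53 UMIs in Plac8-high cells 10 came from 1 cell.

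**Figure D2:**
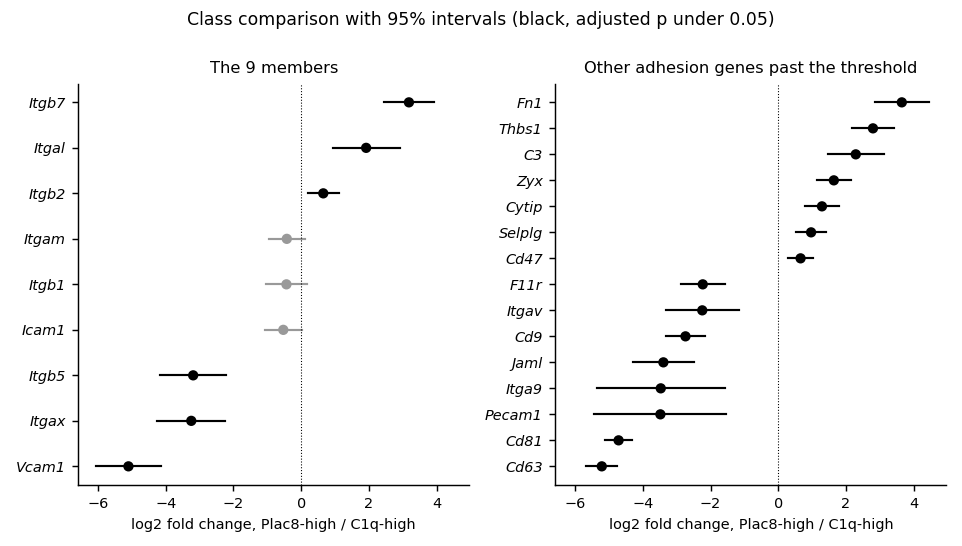
Log2 fold change of Plac8-high over C1q-high cells (x axis) with its 95% interval for the 9 members on the left and for other adhesion genes past the threshold on the right (black, adjusted p under 0.05; grey, not past it). Itgb7 and Itgal lie at 3.18 and 1.92, and Vcam1, Itgax and Itgb5 between −5.10 and −3.19.

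Among other genes of adhesion the classes also differed in both directions. Of 74 listed genes 53 have a row, 36 were tested, 8 were higher in Plac8-high cells and 8 were lower, beside the 18.3% of all genes called. The list's median log2 fold change was 0.30, beside −0.14 over all genes. Of 4 tested α or β chains Itgav and Itga9, the latter pairing with β1, were lower. Of 22 tested genes of integrin activation and linkage to actin 3 were higher and 3 lower, and of 10 tested ligands and other adhesion molecules 5 were higher and 3 lower.

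Among the genes higher in Plac8-high cells were Fn1, fibronectin (log2 fold change 3.65 ± 0.39, SE), Thbs1, the matrix protein thrombospondin (2.79 ± 0.31), and C3, whose fragment iC3b is a ligand of Mac-1 and CR4 (2.29 ± 0.41). Zyx, a protein of focal adhesions (1.64 ± 0.25), and Cytip, a partner of cytohesin (1.29 ± 0.25), came next. Towards C1q-high cells the list was led by the tetraspanins Cd63 (−5.21 ± 0.22) and Cd81 (−4.72 ± 0.20). Pecam1, the platelet and endothelial adhesion molecule (−3.48 ± 0.96), Itga9 (−3.47 ± 0.94), the junctional adhesion molecule Jaml (−3.39 ± 0.45) and the tetraspanin Cd9 (−2.74 ± 0.29) followed. All of these passed edgeR's test, with adjusted p between 5.51e-22 and 0.00734.

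Cells that met both rules held the members in a mixed pattern. There were 38 of them, with a median of 2998 UMIs per cell, beside 3110 in Plac8-high only and 3390 in C1q-high only cells. No doublet caller was run here, and whether these cells are pairs was not tested. Pooled over mice and without TMM factors, Itgb7 stood at 153 CPM in Plac8-high only cells, 55.6 CPM (exact 95% interval 24.0 to 110) in cells of both kinds and 13.3 CPM in C1q-high only cells. Vcam1 went the other way, with 7.91, 69.5 (33.3 to 128) and 213 CPM. For both genes the cells of both kinds lay between the classes.

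Itgax stood at 97.3 CPM (53.2 to 163) and Itgb5 at 104 CPM (58.4 to 172) in cells meeting both rules, within counting error of the 109 and 107 CPM of C1q-high only cells. Itgal stood at 76.5 CPM (38.2 to 137), within counting error of the 68.5 CPM of Plac8-high only cells. Itgb2 stood at 125 CPM (74.2 to 198), beside 271 and 131 CPM in the classes. Itgam at 195 CPM (129 to 281) and Icam1 at 202 CPM (135 to 290) were not between the classes, which held 103 and 122 CPM of Itgam and 140 and 160 CPM of Icam1. The interval of Itgam lay above the pooled C1q-high level and that of Icam1 did not. Per mouse, however, Itgam ran from 0 to 318 CPM in these cells and Icam1 from 105 to 282 CPM. Itgb1 was at 76.5 CPM, beside 81.7 and 84.0 CPM. The intervals cover counting error only, and the cells came unevenly from the mice (13, 5, 16 and 4).

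**Figure D3:**
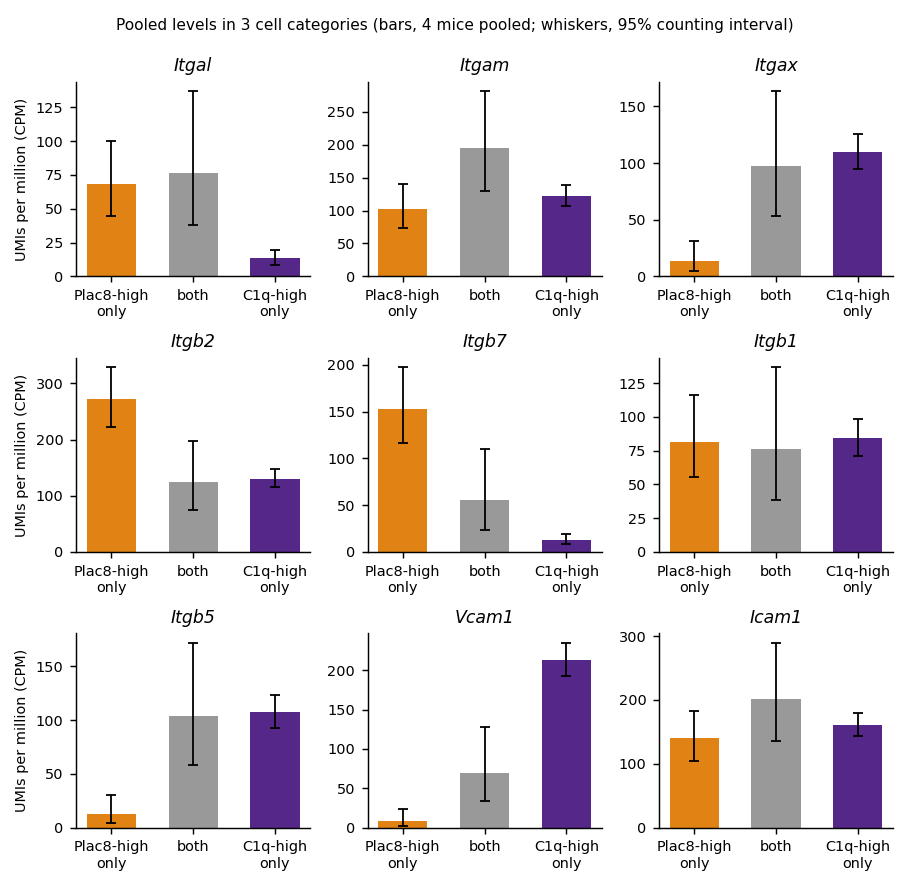
Pooled CPM of each member in Plac8-high only cells (123), cells meeting both rules (38) and C1q-high only cells (472), with exact 95% counting intervals as whiskers. In the middle group Itgb7 and Vcam1 lie between the classes, Itgax and Itgb5 near the C1q-high level and Itgal near the Plac8-high level, while Itgam and Icam1 stand at 195 and 202 CPM, above both.

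Genes whose pattern over the 8 libraries was most like that of a member were found by Pearson's r of log2 CPM, a description in which 2 classes of 4 mice give most of the spread. Itgb7 was most like Ly6c2, the monocyte antigen Ly6C that the sort used (r = 0.994), and Ifi204 (0.993). Vcam1 was most like Serpinf1 (0.993) and Tipin (0.990), Itgb5 like Antxr2 (0.990) and Marcks (0.988), and Itgax like Npl (0.990) and Ndufaf8 (0.978). Itgb2 was closest to Oas1a (0.977) and Fam32a (0.957), and Itgal to Sem1 (0.967) and Ptpn1 (0.956). For the members that did not separate the classes the best r was lower, with Drg2 (0.939) and Dcakd (0.931) for Itgam, Cnot2 (0.948) and Manf (0.923) for Itgb1, and Swt1 (0.932) and Ndufv1 (0.921) for Icam1.

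Exposure to DEP was the question of the study, and here it gave no call for any of the 9 genes. DEP was compared with PBS with edgeR's quasi-likelihood test over all retained cells and within each class, a cell meeting both rules counting in both. None of the 9 members passed the test over all retained cells, in Plac8-high cells or in C1q-high cells, where 0.41%, 0% and 0.172% of all genes were called. Unadjusted p-values under 0.05 were found for 3, 0 and 3 members and for 8.47%, 4.95% and 6.30% of all genes, and DESeq2 called none either. With no cell removed the count was 0 of 9 in each of the 3 comparisons as well, where 0.0179%, 0.0379% and 0.0175% of all genes were called. With 2 mice against 2 an exact permutation test has 6 arrangements, and its smallest two-sided p is 0.333. In Plac8-high cells the 95% intervals of the log2 fold change were wide, running from −0.84 to 0.89 for Itgb7 and from −1.50 to 0.22 for Itgam.

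**Figure D4:**
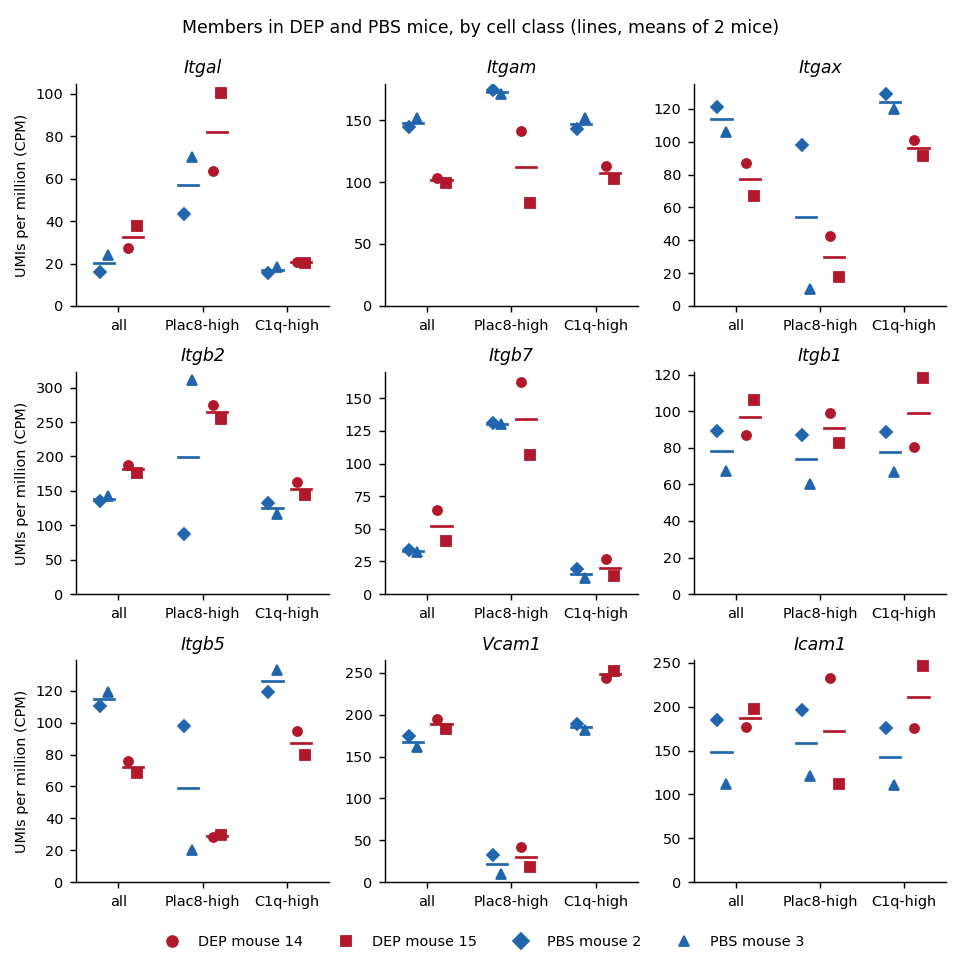
CPM with TMM factors of each member over all retained cells, Plac8-high cells and C1q-high cells (red, DEP mice 14 and 15; blue, PBS mice 2 and 3; short lines, means of 2 mice). In C1q-high cells Vcam1 lies higher, and Itgb5, Itgax and Itgam lie lower, in both DEP mice than in both PBS mice.

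In C1q-high cells Vcam1 stood at 243 and 253 CPM in DEP mice and at 189 and 182 CPM in PBS mice, without overlap. The means were 248 ± 6.42 and 185 ± 4.97 CPM (SD, n = 2 each). The log2 fold change was 0.42 ± 0.20 (SE, edgeR unadjusted p = 0.0444, adjusted p = 0.785). Over all cells of the class, without removal, it was 0.63 ± 0.16 (unadjusted p = 0.00123, adjusted p = 0.477), with 270 and 259 CPM against 174 and 169 CPM. Its direction held in all 14 settings, between 0.39 and 0.63, and none reached the threshold.

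Icam1 stood at 175 and 246 CPM in C1q-high cells of DEP mice and at 175 and 111 CPM in those of PBS mice. DEP mouse 14 and PBS mouse 2 were alike, so that the groups met. The log2 fold change was 0.59 ± 0.24 (SE, edgeR adjusted p = 0.682), and 0.27 over all cells of the class.

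Itgb5, Itgax and Itgam pointed the other way. Itgb5 stood at 95 and 79.6 CPM in C1q-high cells of DEP mice and at 119 and 133 CPM in those of PBS mice, a log2 fold change of −0.55 ± 0.24 (SE, edgeR adjusted p = 0.721). Itgax stood at 101 and 91.0 CPM against 129 and 120 CPM (−0.38 ± 0.24, adjusted p = 0.855). Itgam stood at 113 and 102 CPM against 143 and 151 CPM (−0.46 ± 0.23, adjusted p = 0.788). For all 3 both DEP mice lay below both PBS mice. Over all cells of the class Itgb5 no longer did, with 129 and 83.9 CPM against 133 and 128 CPM (−0.31).

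In all, 3 members lay higher in both DEP mice of the C1q-high class (Vcam1, Itgb2 and Itgal) and 3 lower (Itgb5, Itgax and Itgam), where 17.6% and 18.1% of all genes did so. Over all cells of the class the counts were 2 and 2, where 17.5% and 17.7% of all genes did. Itgb2 stood at 163 and 143 CPM against 133 and 117 CPM, and Itgal at 20.8 and 20.5 CPM against 15.4 and 18.2 CPM from 36 UMIs. Of the Itgal UMIs 4 of 7 in DEP mouse 14 and 3 of 9 in DEP mouse 15 came from cells meeting both rules. In C1q-high only cells Itgal stood at 10.4 and 14 CPM against 10.1 and 16.5 CPM (without TMM factors), so that the groups overlapped. Itgb1 (80.2 and 118 against 88.6 and 66.6 CPM) and Itgb7 (26.7 and 13.7 against 19.3 and 12.1 CPM, from 33 UMIs) overlapped.

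In Plac8-high cells only Itgam lay apart, at 141 and 82.7 CPM in DEP mice and 174 and 171 CPM in PBS mice (log2 fold change −0.64 ± 0.39, SE, edgeR adjusted p = 0.921). Of all genes 19.4% lay higher and 16.3% lower in both DEP mice. Itgb7 stood at 162 and 106 CPM against 131 and 130 CPM, a log2 fold change of 0.03 (95% interval −0.84 to 0.89). Itgal stood at 63.5 and 100 CPM against 43.6 and 70.3 CPM, and Itgb2 at 275 and 254 CPM against 87.2 and 311 CPM. The spread between the PBS mice exceeded the difference between the groups for Itgb2. Itgax, Itgb5 and Vcam1 had 19, 20 and 13 UMIs in this class, and 14, 15 and 10 of these came from cells that also met the C1q rule. With no cell removed 3 members lay lower in both DEP mice of this class and none higher, where 17.7% and 18.2% of all genes did. Itgam was at 135 and 80.3 CPM against 162 and 171 CPM (log2 fold change −0.64 ± 0.34, SE, edgeR adjusted p = 0.890). Itgax was at 54.0 and 22.9 CPM against 139 and 64.8 CPM (−1.38 ± 0.53, unadjusted p = 0.0195, adjusted p = 0.766). Itgb5 was at 40.5 and 38.2 CPM against 131 and 53.0 CPM (−1.16 ± 0.51, unadjusted p = 0.0389, adjusted p = 0.827). For Itgax and Itgb5 the gap to PBS mouse 3 was small and PBS mouse 2 stood far above. Of their 47 and 45 UMIs here, only 6 and 5 came from Plac8-high only cells. In those cells Itgax stood at 28.9 and 0 CPM in DEP mice against 13.9 and 9.64 CPM in PBS mice. Itgb5 stood there at 0 and 19.9 CPM against 0 and 9.64 CPM, so neither gene lay lower in both DEP mice.

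Over all retained cells 4 members lay higher (Itgal, Itgb2, Itgb7 and Vcam1) and 3 lower (Itgam, Itgax and Itgb5) in both DEP mice, where 18.9% and 20.1% of all genes did. Itgb7 stood at 64.2 and 40.8 CPM against 33.8 and 32.2 CPM (log2 fold change 0.63 ± 0.33, SE, edgeR adjusted p = 0.650). Itgb5 stood at 75.7 and 68.6 CPM against 110 and 119 CPM (−0.68 ± 0.22, adjusted p = 0.328), Itgax at 87.2 and 66.9 CPM against 121 and 106 CPM (−0.57 ± 0.23, adjusted p = 0.492) and Itgam at 103 and 99.6 CPM against 144 and 152 CPM (−0.55 ± 0.21, adjusted p = 0.452). Plac8-high cells made up 37.5% and 29.8% of retained cells in DEP mice and 18.8% and 16.5% in PBS mice. With no cell removed the shares were 29.1%, 23.7%, 19.0% and 16.4%. Over all cells 3 members lay higher (Itgb2, Itgb7 and Vcam1) and 3 lower (Itgam, Itgax and Itgb5) in both DEP mice, where 18.1% and 19% of all genes did, and Itgal overlapped. The log2 fold change of Itgb7 was then 0.31 ± 0.27 (SE, edgeR adjusted p = 0.877), with 38.4 and 31.0 CPM against 29.1 and 26.8 CPM. That of Vcam1 was 0.52 ± 0.15 (unadjusted p = 0.00536, adjusted p = 0.781), and those of Itgb5, Itgax and Itgam were −0.39, −0.42 and −0.36 (adjusted p = 0.815, 0.782 and 0.804). The part of these shares in the levels of Itgb7 and Itgb5 over all cells was not tested. In such sums fewer cells of a class and less RNA per cell cannot be told apart.

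Immunoglobulin transcripts lay higher in both DEP mice over the whole table, at 21666 and 30162 CPM against 1461 and 8600 CPM in PBS mice. Of all genes 18.1% lay higher in this way over all cells. The PBS mice differed widely from each other, and the difference between the groups was not tested. In the retained cells the B or plasma cell list summed to 490 and 733 CPM against 368 and 393 CPM, with 10 of its 12 genes detected. Igkc (209 and 364 against 112 and 110 CPM), Igha (81.7 and 195 against 16.7 and 62.7 CPM) and Jchain (36.3 and 62.3 against 11.7 and 19.2 CPM) carried the difference. Ighm (150 and 95.8 against 186 and 163 CPM) and Cd79b (11.3 and 14.4 against 36.8 and 33.3 CPM) lay lower in both DEP mice. This list also decided which cells were retained, so its levels in them depend on the filter. Over all cells Ighm stood at 178 and 174 against 185 and 186 CPM, and Cd79b at 33.6 and 40.8 against 42.8 and 50.4 CPM. The dendritic cell list, of which 6 of 8 genes were measured, summed to 204 and 244 CPM against 109 and 169 CPM in the retained cells. Over all cells its gene Cd209a still lay higher in both DEP mice (23.1 and 34.1 against 4.01 and 15.1 CPM). Batf3 (103 and 103 against 91.0 and 112 CPM) and Ccr7 (9.45 and 42.2 against 13.4 and 20.1 CPM) overlapped there. The part of these transcripts in the members' values was not tested.

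Whether exposure acted differently in the classes was asked with an interaction term, DEP against PBS in Plac8-high minus C1q-high cells. None of the 9 members passed the test, where 0.368% of all genes did, and none had an unadjusted p under 0.05. The nearest was Icam1, whose class difference was 0.95 lower in DEP mice on the log2 scale (interaction −0.95 ± 0.50, SE, edgeR adjusted p = 0.888). Per mouse, on the log2(CPM + 1) scale, that difference was −1.84 in DEP mouse 15 but 0.03 in DEP mouse 14. The latter lay between the 0.11 and −0.13 of PBS mice 2 and 3. For Itgb7 the term was −0.18 (95% interval −1.77 to 1.4).

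Of the other adhesion genes none passed the test between DEP and PBS in any class, with 36, 33 and 34 tested over all retained cells, in Plac8-high and in C1q-high cells. Unadjusted p-values under 0.05 were found for 8, 2 and 5 of them, and their median log2 fold changes were −0.14, −0.03 and −0.06. The medians over all genes tested lay between −0.01 and 0.03.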

How the data were processed

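Macrophages of 4 mice were measured by droplet single-cell RNA sequencing. Reads were aligned by the authors to mm10 using Cell Ranger (the submitters' processing notes also name STAR 2.6.1a and R 3.6). They filtered the cells and deposited raw UMI counts, whole numbers without normalization, for 12596 genes in cells of 1016 to 22526 UMIs. Per the study's methods, a search for doublets with scran marked no cell. Of the deposited cell barcodes 1 was shared between mice.

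The members, classes and gene lists were chosen with earlier results of these data known. Of the rows 12576 were matched to a symbol. UMIs were summed per mouse and class, since cells are not replicates, and tested with edgeR 4.0.16 in R 4.3.3 (TMM, quasi-likelihood test, Benjamini-Hochberg adjustment, adjusted p under 0.05). Following the study's filter, a gene needed over 1 CPM in 2 libraries or more and detection in 5% of cells or more. The class comparison had the mouse as block, since both classes come from the same mice. DEP and PBS mice share no number, so no block applies there. Depth per mouse was 440856 to 781008 UMIs over retained cells. All 9 members were named, and of the list of other adhesion genes at most 6 called genes in each direction, of which 1 is not reported here. The α and β chain names are textbook names. The median ratio factors, DESeq2 1.42.0, other filters, other class thresholds, thinned cells and each mouse left out in turn were alternatives. Intervals of ratios, levels and shares are exact at 95% (scipy 1.17.1) and cover counting error only. Levels were not compared between genes.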

Additional observations from a re-analysis of the deposited data

Results flagged for a closer look

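Over the 4 mice, the class difference of Vcam1 and that of Icam1 each had 1 mouse far from the others. For Vcam1, DEP mouse 14 lay apart, at −3.35 on the log2(CPM + 1) scale for Plac8-high over C1q-high cells, beside −8.19, −7.84 and −7.70 in mice 15, 2 and 3. Its gap was 0.899 of the whole range, above the 95% critical value of Dixon's test for 4 values. It rests on 3 UMIs in 2 cells, where the other mice had none. Their values were therefore set by the added 1 CPM and the C1q-high level, and the test cannot judge this gap. For Icam1, DEP mouse 15 lay apart, at −1.84 beside 0.03, 0.11 and −0.13 in mice 14, 2 and 3, a gap of 0.879 of the range. All 9 members were examined in this way, and chance flags about 1 such group in 20, a rate that need not hold where libraries had no UMI.

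Immunoglobulin transcripts are not among the members but helped decide which cells were removed before the comparisons. They stood at 21666 CPM in DEP mouse 14 and 30162 CPM in DEP mouse 15, above the 1461 and 8600 CPM of PBS mice 2 and 3.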

How the results depend on the processing

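In the class comparison Itgb7, Itgax, Itgb5 and Vcam1 kept their direction and passed the test in every setting that tested them. The count of members called was 6 of 9, between 4 and 6 when 1 mouse was left out, and 3 of 7 tested (Itgax, Itgb5 and Vcam1) after thinning each cell to 1000 UMIs, where Itgb7 and Itgal no longer met the filter on detection. Without the mouse block the count of calls was 6 as well, and the block changed no call. Itgb2 lost its call in 11 of 18 alternatives, among them DESeq2 (log2 fold change 0.60, adjusted p = 0.386), and was 0.48 without PBS mouse 3 (adjusted p = 0.291), 0.65 without DEP mouse 14 (adjusted p = 0.0646) and 0.65 without DEP mouse 15 (adjusted p = 0.0995). Itgal lost its call without DEP mouse 15 only. The class difference of Icam1 ran from −0.74 to 0.021 when 1 mouse was left out.

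Between DEP and PBS, and for the interaction, no member was called in any setting, so the changes of sign below concern values that were never called. Thinning gave −0.010 for Itgb1 over all retained cells. In Plac8-high cells Itgb7 was −0.022 after thinning, −0.22 with 3 or more Plac8 UMIs, −0.18 with Plac8 at 0.05% of UMIs and −0.064 without cells meeting both rules, where Icam1 was −0.41. Itgb1 was −0.074 there over all cells. Vcam1 was −0.16 there with immunoglobulin genes left out of the filter, an alternative chosen after seeing the data, and −0.046 with 1 or more Plac8 UMIs. Leaving out 1 mouse moved the Plac8-high values over −0.31 to 0.31 for Itgb7, −1.73 to 0.51 for Itgb5, −1.72 to 1.45 for Itgax, −0.24 to 1.59 for Itgb2, −0.24 to 1.45 for Vcam1 and −0.50 to 0.56 for Icam1. In C1q-high cells Itgb7 was −0.046 over all cells and −0.030 with the later filter, and ran from −0.16 to 0.79 with 1 mouse left out. The interaction turned to 0.078 and 0.055 for Itgb7 and to −0.073 and −0.0059 for Itgb2 under these 2 choices of cells. It turned to −0.26 for Itgal over all cells, 0.081 for Itgb1 with the later filter and −0.013 for Itgb2 with median ratio size factors. The cause of these changes was not tested. A fit leaving out 1 DEP or PBS mouse assumes that the lone mouse varies like the pair. The Plac8-high libraries held 97609 to 177328 UMIs, where 1 UMI was worth 5.64 to 10.2 CPM, which limits what the DEP comparison in these cells could show.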
